A study of Homo sapiens with 12 samples.

Results

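Promoters of protein-coding genes are the stretches around transcript starts where RNA polymerase II assembles. The nucleosomes that flank an active start carry H3K27ac, the acetylated form of a lysine in the tail of histone H3, which p300 and CBP place and which active enhancers carry as well. The mark was profiled by CUT&RUN, in which an antibody tethers a nuclease to marked chromatin and the released DNA is sequenced. The regions described here were chosen by peak rank within each library and by position, whichever condition the library came from. The 20000 highest peaks of each of 6 H3K27ac libraries were pooled, peaks within 100 bp of each other were merged, and a merged region was kept when it lay within 1 kb of a GENCODE protein-coding transcript start on hg38 and was under 4000 bp wide. Of 38598 merged regions, 11205 (29.0%) met this rule, 27379 lay farther from a start and 14 near a start were at or over the width limit.

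The cells were HCT116, an established colorectal carcinoma line. They were left untreated, given 1 µM cobimetinib, an inhibitor of the MAPK kinase MEK, or given TNFα, a cytokine that activates NF-κB, at 100 ng/ml, with 24 hours for each treatment. There were 2 H3K27ac libraries per condition, beside 6 libraries made with a nonspecific IgG antibody, which are not analysed here. The deposited lists give peaks with a whole-number score and no read counts, so depth is unknown and a promoter is described by whether a library holds it, meaning at least 1 bp of overlap with its 20000 highest peaks, and by rank, the place of its best peak in that library's whole list, where rank 1 is the highest score. According to the methods of the study each library came from a replicate of the treatment, and whether these were separate cultures is not given, so p-values measure the spread between these libraries. A region held by a single condition entered only through that condition's high ranks, which are then compared, and its p-value does not allow for this. Fewer cells with a mark and less of the mark per cell cannot be told apart in these bulk libraries.

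RefSeq (GRCh38.p14) promoter sequences existed for 103 of the 130 genes at the regions named below. The 250 bases before the start are shown for 10 of them, chosen because the results turn on these promoters and because no annotated exon crosses the window. GET3 (chr19:12736856-12737105, plus strand) and EIF3B (chr7:2354577-2354826, plus) were among the highest ranked promoters in all libraries. PLK4 (chr4:127880643-127880892, plus), RRM1 (chr11:4094435-4094684, plus) and CDK1 (chr10:60778081-60778330, plus) were lower ranked with cobimetinib. ABLIM1 (chr10:114685004-114685253, minus) and FGD3 (chr9:92974219-92974468, plus) were higher ranked with cobimetinib. HDAC9 (chr7:18509020-18509269, plus), TRAF1 (chr9:120926797-120927046, minus) and NFKB2 (chr10:102393860-102394109, plus) were higher ranked with TNFα than with cobimetinib. Sequences run 5′ to 3′ toward the start, and capitals mark matches, on either strand, to the 10 motifs named further on.
GET3: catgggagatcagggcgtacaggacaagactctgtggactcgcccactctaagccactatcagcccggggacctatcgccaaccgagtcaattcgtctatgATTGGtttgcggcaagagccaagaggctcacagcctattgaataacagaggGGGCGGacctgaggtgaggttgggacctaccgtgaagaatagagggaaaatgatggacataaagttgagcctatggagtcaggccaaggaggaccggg
EIF3B: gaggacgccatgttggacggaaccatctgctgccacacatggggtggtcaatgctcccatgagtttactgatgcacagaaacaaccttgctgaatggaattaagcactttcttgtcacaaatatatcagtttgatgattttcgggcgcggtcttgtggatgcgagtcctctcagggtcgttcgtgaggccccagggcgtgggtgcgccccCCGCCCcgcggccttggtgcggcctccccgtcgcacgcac
PLK4: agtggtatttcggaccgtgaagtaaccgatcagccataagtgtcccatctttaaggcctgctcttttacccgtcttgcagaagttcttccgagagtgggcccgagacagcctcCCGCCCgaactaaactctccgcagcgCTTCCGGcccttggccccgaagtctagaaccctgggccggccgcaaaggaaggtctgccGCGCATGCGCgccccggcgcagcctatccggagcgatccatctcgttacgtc
RRM1: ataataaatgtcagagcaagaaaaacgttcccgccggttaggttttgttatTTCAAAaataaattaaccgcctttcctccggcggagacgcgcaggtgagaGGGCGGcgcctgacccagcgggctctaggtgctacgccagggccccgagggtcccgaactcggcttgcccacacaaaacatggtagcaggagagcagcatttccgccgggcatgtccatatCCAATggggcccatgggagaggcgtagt
CDK1: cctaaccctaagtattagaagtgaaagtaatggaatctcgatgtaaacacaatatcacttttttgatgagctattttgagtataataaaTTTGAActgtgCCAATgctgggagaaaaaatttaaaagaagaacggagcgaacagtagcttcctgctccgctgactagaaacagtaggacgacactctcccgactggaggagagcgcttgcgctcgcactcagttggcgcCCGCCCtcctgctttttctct
ABLIM1: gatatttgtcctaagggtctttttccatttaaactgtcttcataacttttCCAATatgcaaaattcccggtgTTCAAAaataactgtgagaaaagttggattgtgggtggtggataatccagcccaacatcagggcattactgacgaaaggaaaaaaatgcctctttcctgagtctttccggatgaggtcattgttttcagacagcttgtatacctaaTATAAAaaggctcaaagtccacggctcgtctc
FGD3: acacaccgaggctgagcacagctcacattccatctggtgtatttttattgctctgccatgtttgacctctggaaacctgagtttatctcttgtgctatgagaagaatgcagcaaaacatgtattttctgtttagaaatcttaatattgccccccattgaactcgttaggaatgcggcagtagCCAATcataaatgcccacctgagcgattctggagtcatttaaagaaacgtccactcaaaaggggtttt
HDAC9: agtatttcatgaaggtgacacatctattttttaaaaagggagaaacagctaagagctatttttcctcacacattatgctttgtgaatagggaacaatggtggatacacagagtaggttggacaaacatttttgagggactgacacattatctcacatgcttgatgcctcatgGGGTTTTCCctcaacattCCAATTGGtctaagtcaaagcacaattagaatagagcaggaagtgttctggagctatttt
TRAF1: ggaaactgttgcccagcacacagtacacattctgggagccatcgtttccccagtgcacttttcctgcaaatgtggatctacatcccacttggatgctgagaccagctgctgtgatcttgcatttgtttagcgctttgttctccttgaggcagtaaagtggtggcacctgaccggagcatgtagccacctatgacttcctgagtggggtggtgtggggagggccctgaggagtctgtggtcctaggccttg
NFKB2: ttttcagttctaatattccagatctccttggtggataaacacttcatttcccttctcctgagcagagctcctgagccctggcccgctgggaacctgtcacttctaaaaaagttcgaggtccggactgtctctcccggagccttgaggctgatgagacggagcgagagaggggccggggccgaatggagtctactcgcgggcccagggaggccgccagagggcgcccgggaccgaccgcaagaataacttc

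The windows differed in what they held. GET3 had a CCAAT box, the word read by NF-Y, and 1 GC box, the word read by SP and KLF factors. PLK4 had an ETS word and 2 overlapping NRF1 matches. RRM1 and CDK1 each had a CHR word, an element of cell cycle promoters, and a CCAAT box. HDAC9 had an NF-κB word and 2 overlapping CCAAT matches, while the TRAF1 and NFKB2 windows had no match to any of the 10 words. Only 61 bases of the TRAF1 window and 172 of the NFKB2 window lay inside the H3K27ac region, against all 250 in the other windows. The lack of matches is therefore partly that of sequence outside the region. ABLIM1 had a TATA word near the start, a CHR word and a CCAAT box. CpG dinucleotides numbered 24 in the PLK4 window, 5 in ABLIM1, 5 in FGD3 and 0 in HDAC9.

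The 11205 promoter regions covered starts of 11235 of 19702 protein-coding genes (57.0%), and 85.3% of them overlapped a start. They were broad, with a median width of 1515 bp against 663 bp for all other merged regions. Promoter regions were also shared more widely between libraries, as the plot of libraries per region shows. All 6 libraries held 4089 of them (36.5%), against 14.0% of the other regions, while 1570 (14.0%) were held by a single library, against 51.5% of the others. A peak of any rank was listed in all 6 libraries at 8564 promoter regions.

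**Figure D1:**
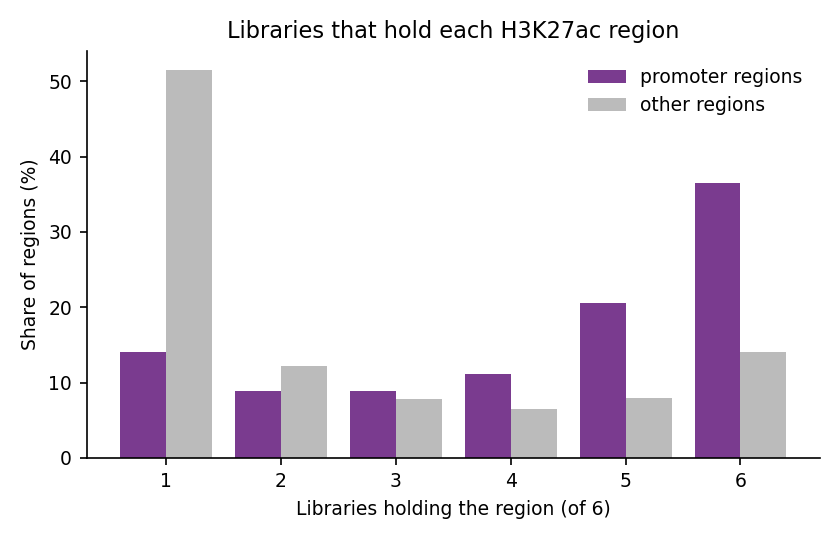
Share of regions (y axis, %) by the number of the 6 H3K27ac libraries that hold them (x axis), for promoter regions (purple) and all other merged regions (grey). Promoter regions peak at 6 libraries (36.5%) and other regions at 1 library (51.5%).

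Untreated replicate 2, whose peak names mark it as merged after resequencing, stood apart from the other 5 libraries. It held 5478 promoter regions, against 7768 to 9153 in the others, and its peaks covered the transcript start at 48.5% of those it held, against 76.9% to 89.3%. At 1767 promoter regions it was the only library that did not hold the region, and at 1550 of these it still had a lower peak. Across promoter regions the log2 ranks of the untreated replicates correlated at r = 0.618, below the cobimetinib pair (0.82) and the TNFα pair (0.83), a description over regions that share libraries. Counts, medians and calls that involve untreated cells are therefore also given without this library where it moved them, with untreated replicate 1 then the only untreated library. In the other libraries coverage was highest within 50 bp of the start and was wider into the gene than upstream: untreated replicate 1 covered 58.6% of its held regions at 500 bp upstream and 74.2% at 500 bp downstream.

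**Figure D2:**
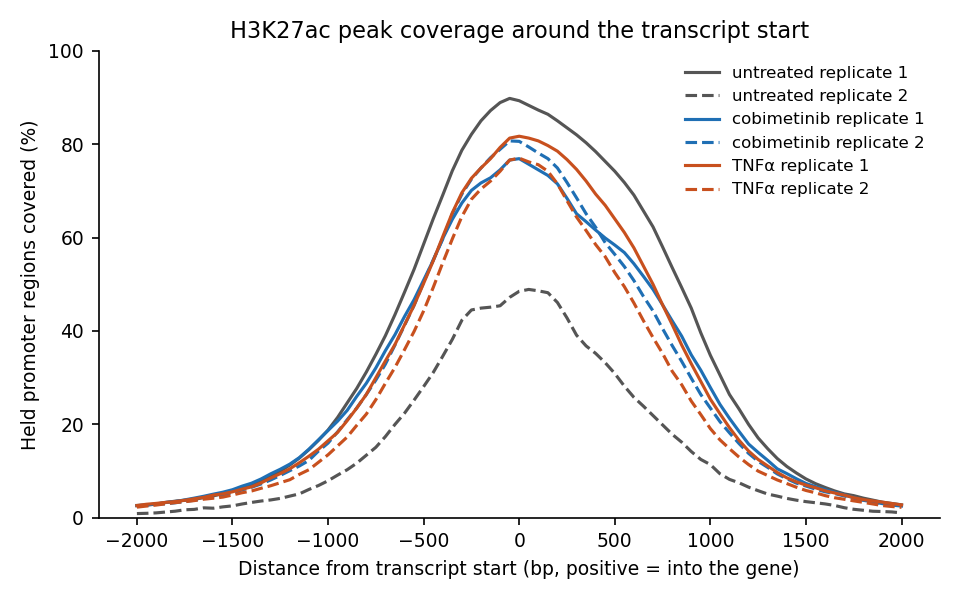
Share of the promoter regions held by each library (y axis, %) whose 20000 highest peaks cover a given distance from the transcript start (x axis, bp; positive is into the gene). Lines are libraries (solid replicate 1, dashed replicate 2). Coverage at the start is 76.9% to 89.3% in 5 libraries and 48.5% in untreated replicate 2.

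Markers of the labelled cell type were checked by their promoters. Of 12 colon epithelial markers 10 had a promoter region, among them EPCAM, KRT8, KRT18 and CDX2, and CDH1 and VIL1 had none, but only KRT8 and ELF3 were held by all 6 libraries and KRT19 by 1. None of 6 blood, 4 neural or 3 liver markers had one. Of 4 endothelial markers PECAM1 had one, and of 6 fibroblast and muscle markers COL1A1 and ACTA2, whose region is shared with FAS, did. The COL1A1 region was held by all 6 libraries, at ranks of 2339.5 to 9958.5.

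The promoters with the smallest mean rank over the 6 libraries included GET3, EIF3B/SNX8, CWC25, CBY1/FAM227A, FARSB, CALM3, ZDHHC5, ARIH1 and CEP250/GDF5. GET3 inserts tail-anchored proteins into membranes, EIF3B is a translation initiation subunit, FARSB charges phenylalanine tRNA and CALM3 encodes calmodulin. The GET3 region (chr19:12736687-12737903) ranked 19 and 33 in untreated replicates 1 and 2, 13 and 9 with cobimetinib and 25 and 23.5 with TNFα. EIF3B/SNX8 (chr7:2354010-2355050) ranked 15 and 36 untreated, 19 and 19 with cobimetinib and 18 and 33 with TNFα. At GET3 both cobimetinib libraries lay above the other 4, and at EIF3B/SNX8 the groups overlapped. Promoter regions within the 1000 highest peaks numbered 540 and 336 in the untreated libraries, 546 and 521 with cobimetinib and 382 and 288 with TNFα, so both TNFα libraries had fewer than both cobimetinib libraries.

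Cobimetinib against untreated cells asked which promoters differ when MAPK signalling is blocked. The lower placed promoters included genes of S phase and centriole duplication, and other genes as well. The 5 with the smallest p were PLK4, EIF4A1, RBFOX1, MCM2/TPRA1 and AKAP1, while RRM1 and POLE/PXMP2 were named from a gene list. The smallest p was at PLK4, the kinase that starts centriole duplication (chr4:127880186-127881928). PLK4 ranked 79.5 and 932 untreated and 19810.5 and 11131.5 with cobimetinib. Both untreated libraries were within the 1000 highest peaks and both cobimetinib libraries far below them. The rank shift, the mean difference in log2 rank signed so that a positive value means a higher place in the group named first, was -5.77 (SE 0.88; adjusted p = 4.32e-07, limma over all 38598 regions with Benjamini-Hochberg adjustment). MCM2/TPRA1 (chr3:127597852-127599198), where MCM2 is a subunit of the replicative helicase, ranked 83 and 1429 untreated and 7009 and 9554 with cobimetinib, a shift of -4.57 (SE 0.91, adjusted p = 0.000398). RRM1, the large subunit of ribonucleotide reductase, ranked 1256 and 1634.5 untreated and 13131.5 and 9703.5 with cobimetinib (shift -2.98, SE 0.86, adjusted p = 0.0471). POLE/PXMP2, with the leading strand DNA polymerase, ranked 925 and 6729.5 untreated and 35825.5 and 12488.5 with cobimetinib (shift -3.08, SE 0.86, adjusted p = 0.0387). Both untreated libraries lay above both cobimetinib libraries at PLK4, MCM2/TPRA1, RRM1 and POLE/PXMP2. None of these 4 passed when regions were ranked among merged regions in place of within the peak list. That ranking left 3 promoter calls, all higher with cobimetinib. Nor did any pass in a fit of only the regions with a peak in every library, which left 0 promoter calls. All 4 passed without untreated replicate 2. RRM1 and POLE/PXMP2 did not pass without cobimetinib replicate 1 (adjusted p = 0.571 and 0.949) or 2 (0.252 and 0.0796), POLE/PXMP2 not without untreated replicate 1 (0.0914) and MCM2/TPRA1 not without cobimetinib replicate 2 (0.0653).

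Promoters placed higher with cobimetinib were led by an alternative start of ABLIM1. ABLIM1 encodes an actin-binding LIM protein, and the region (chr10:114684296-114685562) ranked 70708.5 in untreated replicate 1, had no peak in replicate 2, and ranked 1011 and 918.5 with cobimetinib. The shift was 6.61 (SE 0.96, adjusted p = 9.87e-08), past the threshold without untreated replicate 2 and just short of it without cobimetinib replicate 1 (adjusted p = 0.0533). RHOF/SETD1B ranked 20987 and 86440.5 untreated and 1627.5 and 2068 with cobimetinib (shift 4.54, SE 0.91, adjusted p = 0.000394). SELENOP, a secreted selenium carrier, had no untreated peak and ranked 1662 and 8340 with cobimetinib (shift 4.81, SE 1.07, adjusted p = 0.00243). The ABLIM1 and SELENOP regions were held by the cobimetinib libraries alone, so they entered only through the high ranks tested here. FRAT1, a GSK3-binding protein, ranked 3816 and 104594.5 untreated and 666 and 1020.5 with cobimetinib (shift 4.6, SE 0.86, adjusted p = 9.58e-05). Untreated replicate 1 was much closer to the cobimetinib libraries than replicate 2 at FRAT1, and the call ended without replicate 2 (adjusted p = 0.207). RHOF/SETD1B and SELENOP did not pass without cobimetinib replicate 1 (adjusted p = 0.272 and 0.949) or 2 (0.0793 and 0.116).

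Across all promoter regions limma placed 87 higher and 17 lower with cobimetinib, of which 85 and 16 had ranks that did not overlap between the groups. Among the 17 was AKAP1 (chr17:57106750-57108784), outside the gene lists. It ranked 128.5 and 1040.5 untreated and 6347.5 and 8705.5 with cobimetinib (shift -4.35, SE 0.89, adjusted p = 0.000615). The background over all merged regions was 0.578% called higher and 0.513% called lower, against 0.776% and 0.152% of promoter regions. Both cobimetinib libraries ranked above both untreated ones at 2502 promoter regions, 22.3% against 19.3% of all regions, and the reverse held at 1318, 11.8% against 11.2%. The split rested on untreated replicate 2: without it 39 were higher and 96 lower, and with each library centred on its promoter median 45 and 30. The median shift was 0.45 over promoter regions and 0.17 over all regions, and without untreated replicate 2 it was -0.11 and 0.01. Ranking each region among merged regions in place of within the peak list left 3 promoter calls, all higher, and 1046 at an unadjusted p under 0.05.

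By presence, 324 promoter regions were held by both cobimetinib and neither untreated libraries, and 161 by both untreated and neither cobimetinib libraries. Without untreated replicate 2 the counts were 410 and 859, so the larger of the pair changed. The 324 and 161 were 4.44% of the promoter regions that both cobimetinib libraries held, against 10.0% of all merged regions, and 3.24% of those both untreated libraries held, against 6.03%. With 2 libraries against 2 the smallest two-sided exact p for a single region is 0.333, so presence has no test. Of the 324, 8 had no peak in either untreated library and 149 had none in 1 of them. The widest gaps were at ABLIM1, FGD3, SELENOP, RHOF/SETD1B, ACP3, SLC35G6/ZBTB4, ATF7IP2, AMIGO3, ITGA3 and RAB17. FGD3, an exchange factor for CDC42, had no peak in either untreated or either TNFα library and ranked 8192 and 8096.5 with cobimetinib. ACP3, prostatic acid phosphatase, had the same pattern at 10803 and 8096.5. ITGA3, the integrin α3 chain, ranked 63957 with no second peak in untreated cells and 11715 and 4228 with cobimetinib.

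Of the regions held untreated and lost from the cobimetinib lists, the widest gaps were at FAM186A, TSPAN19, MXD3, MARCHF4, FGF1, NUSAP1/OIP5, NLE1, CMTM4 and RRM2, with 1 more at a gene that has no symbol. RRM2, the regulatory subunit of ribonucleotide reductase (chr2:10120349-10122785), ranked 8785 and 4125.5 untreated, 39695.5 and 32216 with cobimetinib and 7912.5 and 9796 with TNFα. NUSAP1/OIP5, a spindle protein beside a centromere factor, ranked 13751.5 and 11736 untreated, 75663.5 and 55658.5 with cobimetinib and 15449.5 and 15725.5 with TNFα. MXD3, a partner of MAX expressed in S phase, ranked 3231 and 4526.5 untreated, 40980.5 and 23257 with cobimetinib and 7912.5 and 23205 with TNFα. At RRM2 and NUSAP1/OIP5 the untreated and TNFα libraries stood together above both cobimetinib libraries, though the limma shift against untreated cells missed the threshold at each (adjusted p = 0.211 and 0.417). FAM186A (shift -4.04, SE 0.93, adjusted p = 0.00371) and FGF1, a fibroblast growth factor (shift -3.31, SE 0.95, adjusted p = 0.0472), passed it. Neither passed without cobimetinib replicate 1 (adjusted p = 0.0967 and 0.949) or 2 (0.21 and 0.26), and FGF1 did not without untreated replicate 2 (0.181).

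Some limma calls followed single libraries or unusual DNA. RBFOX1, a neuronal splicing regulator, had a peak only in untreated replicate 2, at rank 45, and its shift of -5.44 was 0.01 without that library. EIF4A1, the helicase that unwinds mRNA leaders, ranked 2608.5 and 39 untreated and 14418.5 and 6171 with cobimetinib (shift -4.89, SE 0.86, adjusted p = 2.56e-05), and was not past the threshold without untreated replicate 2 (adjusted p = 0.306). The region over MT-ND1 and MT-ND2, on mitochondrial DNA, which is not packaged in nucleosomes, ranked 1430 and 1040.5 untreated, 9 and 63 with cobimetinib and 1172.5 and 7127.5 with TNFα. It is 1 of 5 members on the mitochondrial genome, and its shift with cobimetinib was 5.68 (SE 1.09, adjusted p = 0.000193), a call that ended without cobimetinib replicate 1 (adjusted p = 0.0967).

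TNFα against untreated cells asked which promoters differ after cytokine stimulation. Higher placed promoters were led by an alternative start of HDAC9, a class II histone deacetylase (chr7:18508083-18510070), which ranked 4385 and 6214 untreated, 3279 and 1774 with cobimetinib and 187.5 and 242 with TNFα. Both TNFα libraries were above all 4 others (shift 4.62, SE 0.9, adjusted p = 0.000299). TNIP1, an inhibitor of NF-κB that binds A20, had a region at an alternative start (chr5:151039749-151041320) that ranked 11127.5 and 91529 untreated and 2563 and 1256 with TNFα (shift 4.15, SE 0.89, adjusted p = 0.00143). BBC3, the proapoptotic protein PUMA, ranked 18813.5 with no peak in replicate 2 untreated and 1821 and 3775 with TNFα (shift 4.21, SE 0.91, adjusted p = 0.00176). ZDHHC18, a palmitoyltransferase, ranked 2958.5 and 5496.5 untreated and 102.5 and 632.5 with TNFα (shift 3.99, SE 0.86, adjusted p = 0.0019). ERCC6, a DNA repair factor, and HLA-B, a class I antigen presenting molecule, also passed, with shifts of 4.01 (SE 0.88, adjusted p = 0.00254) and 3.49 (SE 0.89, adjusted p = 0.0184). At HLA-B untreated replicate 2 had no peak, and the call ended without that library (adjusted p = 0.671). Each TNFα replicate also decided calls. Without replicate 1 no named promoter passed, and without replicate 2 HDAC9 and ZDHHC18 did. Untreated replicate 2 decided ERCC6 (adjusted p = 0.143 without it) and TNIP1 (0.0802) as well.

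In all, limma placed 18 promoter regions higher and 3 lower with TNFα, and 17 and 2 of these did not overlap in rank. These were 0.161% and 0.0268% of promoter regions against 0.394% and 0.249% of all merged regions, so the promoter share was the lower in both directions. The 3 lower regions were RBFOX1, EIF4A1 and PLIN5, a lipid droplet protein that ranked 3171.5 and 1936.5 untreated and 17208.5 with no second peak under TNFα. Both TNFα libraries ranked above both untreated ones at 1454 promoter regions, 13.0% against 17.0% of all regions, and below them at 1536, 13.7% against 9.37%. Without untreated replicate 2 the limma calls were 5 higher and 36 lower, with centred ranks 16 and 6, and with ranks among merged regions 4 and 1. The median shift was 0.19 over promoter regions and 0.01 over all regions, and without untreated replicate 2 it was -0.35 and -0.25. Leaving out TNFα replicate 1 left 0 calls (203 at an unadjusted p under 0.05), and leaving out replicate 2 left 2.

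By presence, 202 promoter regions were held by both TNFα and neither untreated libraries, 2.92% of those both TNFα libraries held against 8.9% of all merged regions, and 128 showed the reverse, 2.58% against 3.77%. Without untreated replicate 2 the counts were 265 and 927, again with the other one larger. The widest gaps in favour of TNFα included regulators of NF-κB and immune genes: TANK and TRAF1, adaptors of the TNF receptor pathway, IFNAR2, a chain of the interferon α/β receptor, and PDCD1LG2, the checkpoint ligand PD-L2, with CLDN12, CA14, SYNPO, GASK1B, ENO3 and DSCAML1. CLDN12, a claudin, had no peak in any untreated or cobimetinib library and ranked 5457.5 and 5183 with TNFα (shift 4.29, SE 1.16, adjusted p = 0.0366). IFNAR2 ranked 47575 with no second peak untreated and 3273.5 and 6572 with TNFα (shift 4.05, SE 1.11, adjusted p = 0.0445). TANK ranked 22702 and 50469.5 untreated and 4272.5 and 1971.5 with TNFα (shift 3.54, SE 0.98, adjusted p = 0.0473). The regions of CLDN12, IFNAR2 and TANK were held by the TNFα libraries alone. They entered only through the high ranks tested here, which their p-values do not allow for. CLDN12, IFNAR2 and TANK did not pass without TNFα replicate 1 (adjusted p = 0.922 at each) or 2 (0.898 at each), nor did IFNAR2 and TANK without untreated replicate 2 (0.0815 and 0.0782). Their shifts without TNFα replicate 1 and 2 were 4.33 and 4.25 at CLDN12, 3.55 and 4.56 at IFNAR2 and 4.1 and 2.99 at TANK. The lists held 69813 to 124771 peaks, and a shift against a missing peak depends on that length, as at CLDN12, where cobimetinib over untreated gave 0.27 with no peak in either group. TRAF1 was listed with TNFα alone, at ranks 14093 and 18781, and PDCD1LG2 likewise at 13546.5 and 14770.5, and neither passed the test against untreated cells (adjusted p = 0.581 and 0.493). Regions that TNFα libraries lacked were led by ARHGAP26, TCF20, FRAS1, MAP1LC3B, MTERF2, LARGE2, MARK2, ADAMTS17, TMEM41A and MEF2D. MAP1LC3B, the autophagosome protein LC3B, ranked 12378 and 8823 untreated and 43557 and 81531.5 with TNFα (adjusted p = 0.542). Another MAP1LC3B region, shared with FBXO31 (chr16:87383636-87384887), had no such order. It ranked 17120.5 and 39474.5 untreated and 26373.5 and 16379 with TNFα (shift 0.32, SE 1.05).

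**Figure D3:**
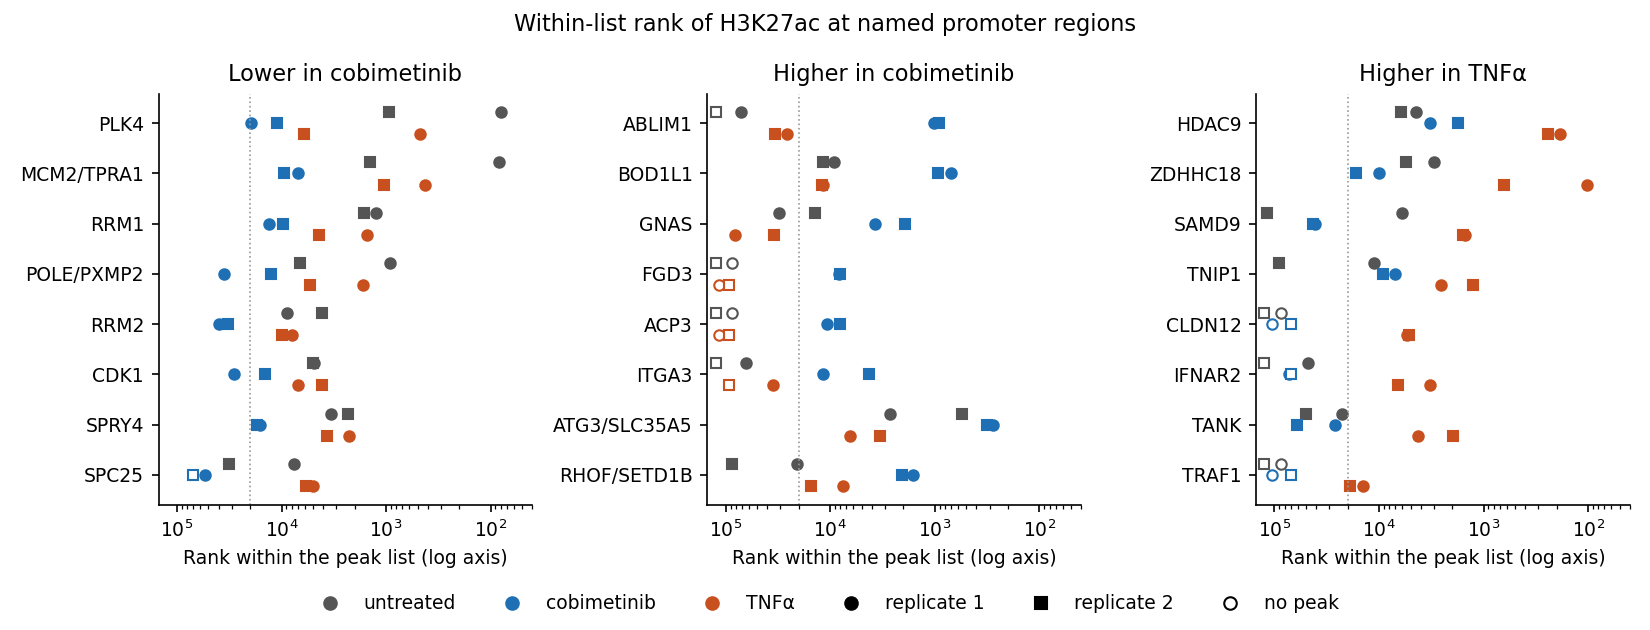
Rank of 24 named promoter regions within each library's peak list (x axis, log scale, rank 1 to the right), untreated in grey, cobimetinib in blue, TNFα in orange, replicate 1 as circles and replicate 2 as squares. Open symbols stand for no peak, drawn at the list length plus 1, and the dotted line is rank 20000. Both cobimetinib libraries lie left of all 4 others at the replication genes MCM2/TPRA1, RRM1 and RRM2, and right of all 4 others at ABLIM1 and BOD1L1.

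The comparison of TNFα with cobimetinib set stimulation against inhibition and did not involve untreated replicate 2. It shares libraries with both comparisons above, so its values stand beside theirs and are not independent of them. ZDHHC18 had the smallest p, with ranks of 102.5 and 632.5 under TNFα and 10115 and 16780 under cobimetinib (shift 5.68, SE 0.66, adjusted p = 2.3e-14). SAMD9, an interferon-inducible antiviral protein (chr7:93115437-93117057), ranked 1510 and 1588 with TNFα, 40980.5 and 42501 with cobimetinib and 6040 and 117375 untreated (shift 4.75, SE 0.65, adjusted p = 1.96e-10). CNTN1, a neural adhesion molecule, ranked 58.5 and 718 with TNFα and 12310 and 2664 with cobimetinib (shift 4.8, SE 0.73, adjusted p = 1.91e-08). GJC1, a connexin, and SLC20A2, a phosphate transporter, had shifts of 3.93 (SE 0.63, adjusted p = 1.39e-07) and 3.94 (SE 0.64, adjusted p = 1.83e-07). PLK4 also stood higher with TNFα, at 478.5 and 6134 (shift 3.12, SE 0.63, adjusted p = 6.01e-05). So did the replication promoters MCM2/TPRA1 at 421.5 and 1050 (shift 3.62, SE 0.64, adjusted p = 2.89e-06), POLE/PXMP2 at 1665.5 and 5334.5 (shift 2.83, SE 0.65, adjusted p = 0.000748) and RRM1 at 1521.5 and 4346 (shift 2.13, SE 0.63, adjusted p = 0.0149). POLE/PXMP2 and RRM1 did not pass without TNFα replicate 1 (adjusted p = 0.2 and 0.385) or cobimetinib replicate 1 (0.0541 and 0.0666).

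Promoters higher with cobimetinib than with TNFα were led again by ABLIM1, which ranked 25724 and 33770.5 with TNFα (shift -4.93, SE 0.63, adjusted p = 3.99e-12). GNAS, the stimulatory G protein α subunit, had a region (chr20:58906844-58908482) that ranked 3734 and 1911 with cobimetinib, 81399 and 34882 with TNFα and 31170 and 13968 untreated (shift -4.32, SE 0.69, adjusted p = 1.39e-07). BOD1L1, a factor that protects stalled replication forks, ranked 697.5 and 929.5 with cobimetinib and between 9201 and 11921 in the other 4 libraries (shift -3.88, SE 0.63, adjusted p = 1.84e-07). ATG3/SLC35A5, where ATG3 is the LC3 conjugating enzyme of autophagy, ranked 276 and 315.5 with cobimetinib and 6475.5 and 3311 with TNFα (shift -3.97, SE 0.72, adjusted p = 4.87e-06). ATG3/SLC35A5 did not pass without TNFα replicate 1 (adjusted p = 0.0731). The MT-ND1/MT-ND2 region shifted by -6.92 (SE 1.17, adjusted p = 7.34e-07), a call that ended without TNFα replicate 2 (adjusted p = 0.289). A region at an ACTB start was listed in cobimetinib replicate 1 alone, at rank 226, and the call at ACTB ended without that library (adjusted p = 0.552).

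In total 160 promoter regions were higher with TNFα and 426 higher with cobimetinib, and in 158 and 417 of these the ranks did not overlap. As a share of promoter regions these were 1.43% and 3.8%, against 4.69% and 4.47% of all merged regions, so the calls leaned to cobimetinib at promoters and were near even over all regions. Centred ranks gave 196 and 291. The median shift was -0.26 over promoter regions and -0.26 over all regions. Both TNFα libraries ranked above both cobimetinib libraries at 1731 promoter regions, 15.4% against 20.3% of all regions, and below them at 3186, 28.4% against 21.8%. No call was left when regions were ranked among merged regions (0 past the threshold, 1209 at an unadjusted p under 0.05), and 72 were left when all 6 libraries set the spread.

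By presence, 297 promoter regions were held by both TNFα and neither cobimetinib libraries, 4.29% of those both TNFα libraries held against 13.5% of all merged regions, and 403 showed the reverse, 5.53% against 11.2%. SAMD9, CLDN12, IFNAR2, STK11, SPC25, MAPKAP1, TNIP1, MKKS, MARCHF4 and IQCF1 had the widest gaps in favour of TNFα. STK11, the kinase LKB1, ranked 2902.5 and 1950.5 with TNFα and 40980.5 and 30658 with cobimetinib (shift 3.9, SE 0.66, adjusted p = 7.92e-07). SPC25, a kinetochore subunit, ranked 5001.5 and 5856.5 with TNFα, 54201 with no second peak with cobimetinib and 7635 and 31498 untreated (shift 3.51, SE 0.77, adjusted p = 0.000351). A second TNIP1 start (chr5:151092823-151094835) had no cobimetinib peak and ranked 6347 and 8745 with TNFα (shift 3.53, SE 0.83, adjusted p = 0.00103). In the reverse set the widest gaps were at ABLIM1, FGD3, GNAS, ACP3, ATF7IP2, GSN, BAIAP2, GFOD1 and BTN3A3. GSN, the actin-severing protein gelsolin, ranked 12520 and 5690 with cobimetinib and had no TNFα peak (shift -3.62, SE 0.84, adjusted p = 0.000945). BAIAP2, a linker of RAC1 to actin, ranked 6166 and 6098 with cobimetinib and 44788.5 in TNFα replicate 2 alone (shift -3.55, SE 0.8, adjusted p = 0.000513).

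Over all 6 libraries, presence in both libraries of a condition and in no library of the other 2 gave 77 promoter regions for TNFα, 161 for cobimetinib and 44 for untreated cells. Promoter regions were 8.77% of all merged regions with the TNFα pattern, 17.0% with the cobimetinib pattern and 34.1% with the untreated pattern, beside their 29.0% of all regions. The untreated and TNFα libraries together held 63 promoter regions that both cobimetinib libraries lacked, 18.1% of 348 merged regions with that pattern, and the untreated and cobimetinib libraries held 42 that both TNFα libraries lacked, 27.5% of 153. These are counts with no test.

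Gene lists are described by their counts and medians. Of 15 DNA replication genes, all had a promoter region, and 6 were held by all libraries. Against untreated cells 3 passed the test, all lower with cobimetinib (MCM2, RRM1 and POLE), beside 0.152% of all promoter regions and 0.513% of all merged regions. The list's median shift was -0.74 beside 0.45 over all promoter regions, or -1.22 beside -0.11 without untreated replicate 2. With TNFα over cobimetinib the same 3 genes passed in the other direction, beside 1.43% of all promoter regions, with a median of 0.99 beside -0.26. Ranks did not overlap for 8 genes higher with TNFα and 2, PCNA and ORC1, higher with cobimetinib, beside 15.4% and 28.4% of all promoter regions. MCM3, MCM4, MCM6, RRM2 and TYMS were among the 8 without passing. ORC1, which starts origin licensing, ranked 1142 and 2483.5 with cobimetinib and 3681.5 and 10539.5 untreated (adjusted p = 0.422). Among 15 cell cycle genes with a region, CDK1, the mitotic kinase, ranked 7007.5 and 4062 with TNFα, 28678 and 14477 with cobimetinib and 4915.5 and 4987 untreated (shift 1.93 over cobimetinib, SE 0.68, adjusted p = 0.0478). CDKN1B, the CDK inhibitor p27, went the other way (shift -2.6, SE 0.85, adjusted p = 0.0313), with ranks of 9042.5 and 19222.5 under cobimetinib. The list's median was 0.18. The CDK1 call ended without TNFα replicate 1, TNFα replicate 2 or cobimetinib replicate 1 (adjusted p = 0.111, 0.395 and 0.308), and the CDKN1B call without any of the 4 libraries (0.0549 to 0.242).

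Of 19 TNF and NF-κB targets 17 had a promoter region, CCL20 and IL32 having none. None passed the test against untreated cells, where the median shift was 0.89 beside 0.19 for all promoter regions and ranks did not overlap for 8 genes higher with TNFα and 0 lower, beside 13.0% and 13.7% of all promoter regions. Without untreated replicate 2 the median was 0.67 beside -0.35. Over cobimetinib 3 were higher with TNFα: NFKB2, the p100 precursor (shift 1.83, SE 0.63, adjusted p = 0.0428), CXCL8, the neutrophil chemokine (shift 2.36, SE 0.8, adjusted p = 0.0398), and TRAF1 (shift 2.4, SE 0.84, adjusted p = 0.0469). Called in this direction were 1.43% of all promoter regions and 4.69% of all merged regions. NFKB2 ranked 2224.5 and 1246 with TNFα, 8192 and 4282 with cobimetinib and 3527.5 and 2069.5 untreated. CXCL8 ranked 9089 and 9625.5 with TNFα, 32909 with no second peak with cobimetinib and 22702 and 5822.5 untreated, so untreated replicate 2 lay above both TNFα libraries. The NFKB2 call ended without TNFα replicate 1, TNFα replicate 2 or cobimetinib replicate 1 (adjusted p = 0.116, 0.408 and 0.277), and the CXCL8 call without any of the 4 libraries (0.0589 to 0.226). NFKBIA, the inhibitor IκBα, was held by both treated pairs and neither untreated library, at 10129.5 and 17215 with TNFα and 10969 and 8096.5 with cobimetinib. RELB ranked 310 and 828 with TNFα and 1062 and 4526.5 untreated (adjusted p = 0.552), and TNFAIP3, the deubiquitinase A20, ranked 9302 and 13643 with TNFα, with untreated replicate 1 above both at 7526.5.

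Of 18 MAPK feedback and target genes 17 had a promoter region, and none passed against untreated cells in either direction. SPRY4, a feedback inhibitor of receptor signalling, was the lowest of them with cobimetinib: its region at chr5:142325952-142328697 ranked 16100 and 17073.5 with cobimetinib, 3373.5 and 2320.5 untreated and 2262 and 3641 with TNFα (shift for TNFα over cobimetinib 2.53, SE 0.64, adjusted p = 0.00301). That region lay 931 bp from the nearest start. A neighbouring SPRY4 region (chr5:142323695-142324834) overlapped a start and had the opposite order. Its peaks were in the cobimetinib libraries alone, at 21462 and 19677.5 (shift -2.33, SE 0.8, adjusted p = 0.0428). The first SPRY4 call ended without TNFα replicate 1 (adjusted p = 0.133) and the second without any of the 4 libraries (0.0682 to 0.231). DUSP6, the ERK phosphatase, ranked 9652 and 4526.5 untreated and 14953 and 13770 with cobimetinib (adjusted p = 0.653), while FOSL1 stood at 34086.5 and 31498 untreated and 16100 and 13085 with cobimetinib (adjusted p = 0.653). The list's median shift with cobimetinib was 0.22 beside 0.45, or -0.14 beside -0.11 without untreated replicate 2. Of 9 AP1 genes 8 had a region and none passed any test. FOS ranked 282.5 and 169.5 untreated, 1165.5 and 298 with cobimetinib and 334.5 and 109 with TNFα, and the list's median was 0.54 for TNFα over cobimetinib.

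All 20 proteasome genes had a promoter region and 14 were held by all libraries. None passed against untreated cells, where the median shift with cobimetinib was -0.66 beside 0.45 and ranks did not overlap for 9 genes lower and 2 higher, beside 11.8% and 22.3% of all promoter regions. Without untreated replicate 2 the median was -1.37 beside -0.11. With TNFα over cobimetinib the median was 0.78, and PSMA5 (shift 1.97, SE 0.66, adjusted p = 0.037) and PSMC2 (shift 1.82, SE 0.64, adjusted p = 0.0479) were higher while the FTSJ3/PSMC5 region was lower (shift -3.22, SE 0.97, adjusted p = 0.0176). Over all promoter regions 1.43% were called higher and 3.8% lower in this comparison. PSMB5, a catalytic subunit, ranked 131 and 1472 untreated, 1627.5 and 1700.5 with cobimetinib and 92 and 1416 with TNFα (adjusted p = 0.0571 for TNFα over cobimetinib). The PSMA5, PSMC2 and PSMC5 calls each ended without TNFα replicate 1, TNFα replicate 2 or cobimetinib replicate 1 (adjusted p = 0.103 to 0.537).

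Antigen presentation and interferon genes had a promoter region in 16 of 17 cases. The calls that follow were lower with TNFα than with cobimetinib, as were 3.8% of all promoter regions. The shared PSMB9/TAP1 promoter, of an immunoproteasome subunit and a peptide transporter, ranked 861 and 1862.5 with cobimetinib, 2930 and 7127.5 with TNFα and 6040 and 2951 untreated, lower with TNFα than with cobimetinib (shift -1.85, SE 0.64, adjusted p = 0.0452). IFIT2, an interferon-induced antiviral protein, was also lower with TNFα than with cobimetinib (shift -2.48, SE 0.83, adjusted p = 0.0368). Of 12 TNF receptor and cell death genes with a region CASP8, the initiator caspase, was lower with TNFα than with cobimetinib (shift -1.85, SE 0.63, adjusted p = 0.0388). Of 6 EGFR family genes with a region, ERBB2/PGAP3 was lower with TNFα (shift -2.14, SE 0.71, adjusted p = 0.0354). Each of these 4 calls ended without TNFα replicate 1 (PSMB9/TAP1 0.0916, IFIT2 0.154, CASP8 0.206 and ERBB2/PGAP3 0.769, as adjusted p).

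Among the metabolic and housekeeping lists, SLC2A1, the glucose transporter GLUT1, was the only one of 15 glycolysis genes to pass limma. By presence, PKM was held with cobimetinib and PGK1 with TNFα but not in untreated cells. One of its regions (chr1:42940897-42942646) ranked 2131 and 782.5 with TNFα, 7942 and 6647.5 with cobimetinib and 3339 and 50469.5 untreated, higher with TNFα than with cobimetinib (shift 2.49, SE 0.63, adjusted p = 0.00301) except when TNFα replicate 2 was left out (adjusted p = 0.258). Against untreated cells this SLC2A1 region shifted by 3.33 (SE 0.86, adjusted p = 0.0225), which did not hold without untreated replicate 2. It lay 592 bp from the nearest start. A second SLC2A1 region (chr1:42943136-42944029), which overlapped a start, went the other way without passing (shift -1.93 for TNFα over cobimetinib, SE 0.84, adjusted p = 0.13). That region ranked 51706 and 69035 with TNFα, 17944 and 13770 with cobimetinib and 15886 and 100417 untreated. The C22orf23/POLR2F region was the called member of 12 RNA polymerase II genes (shift -2.15 for TNFα over cobimetinib, SE 0.62, adjusted p = 0.0132), a call that ended without TNFα replicate 1 (adjusted p = 0.186). Of 10 autophagy and lysosome genes with a region only ATG3 passed limma, while LAMP1 was held untreated and not with cobimetinib. No gene passed in any comparison among 13 cholesterol synthesis genes and 10 mitochondrial ATP synthase genes with a region. Of the 12 p53 targets BBC3 passed, and CDKN1A, the CDK inhibitor p21, was held by both TNFα libraries alone at this region, at 15717.5 and 17835, with 96898.5 and no second peak with cobimetinib (adjusted p = 0.06). Of 11 Wnt targets 6 had a region, and LGR5, LEF1, SP5, ASCL2 and NOTUM had none. A second region at ZNRF3, the ubiquitin ligase that clears Wnt receptors, was lower with TNFα than with cobimetinib (shift -2.53, SE 0.83, adjusted p = 0.0326), a call that ended without any of the 4 libraries (0.0514 to 0.405).

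**Figure D4:**
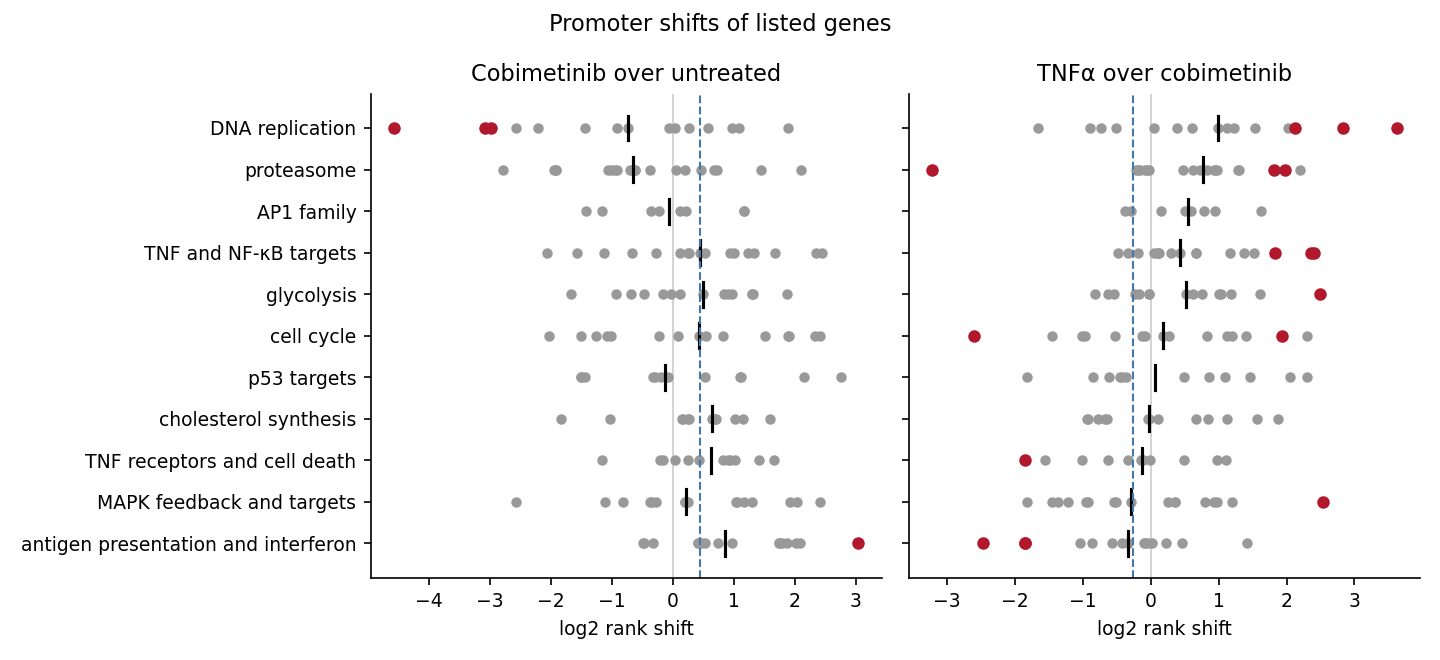
Log2 rank shift (x axis) of the best placed promoter region of each listed gene, for cobimetinib over untreated (left) and TNFα over cobimetinib (right). Each point is a gene, red points passed limma's adjusted p threshold of 0.05, black bars are list medians and the dashed line is the median of all promoter regions (0.45 left, or -0.11 without untreated replicate 2, and -0.26 right). DNA replication and the proteasome have medians of -0.74 and -0.66 on the left and 0.99 and 0.78 on the right.

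The sequence around the start differed between sets. Windows of 250 bases before to 50 after the start were searched on both strands for 10 words. These were TGANTCA for AP1, the dimer of FOS and JUN proteins, TGACGTCA for the cAMP response element (CRE), CCGGAAG for ETS factors, GGGNNTTCC for NF-κB, CCAAT for NF-Y, GGGCGG for SP/KLF, GCGCATGCG for NRF1 and TATAAA for TATA. TTTGGCGC for E2F and TTTGAA for CHR were added after the leading genes had been seen. None of these words contains another, though matches can overlap. Promoter regions gave 10846 distinct windows with a median GC content of 65.7%, and 83.0% had an observed to expected CpG ratio over 0.6, against 40.7% of the canonical starts of genes with no promoter region. ETS words were in 19.3% of promoter windows and 24.6% of those held by all 6 libraries, against 9.76% of those held by 1 library and 4.44% at starts with no promoter region. CRE words were in 3.51%, 4.95%, 1.12% and 1.31% of the same sets. TATA words ran the other way, in 5.5% of promoter windows and 15.9% at starts with no promoter region.

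AP1 words were in 14.4% of the 160 windows higher with TNFα than with cobimetinib, in 4.69% of the 426 windows higher with cobimetinib and in 5.45% of all promoter windows. E2F words were in 5.0%, 0.704% and 1.12% of the same sets, and CHR words in 14.4%, 9.15% and 9.63%. NF-κB words were in 6.88%, 6.1% and 7.99%. They were in 9.95% of the windows of regions held by both TNFα and neither untreated libraries, and in 17.2% of the 87 windows higher with cobimetinib than untreated, where AP1 words were in 8.05%. The 160 windows were also poorer in GC, at a median of 59.5% against 63.0% for the 426, and fewer had the high CpG ratio, 59.4% against 76.3%, so the sets differed in base composition as well as in these words. Among the regions held by both TNFα and neither cobimetinib libraries AP1 words were in 9.76% of windows. These shares are descriptions, and a match is not a binding site.

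**Figure D5:**
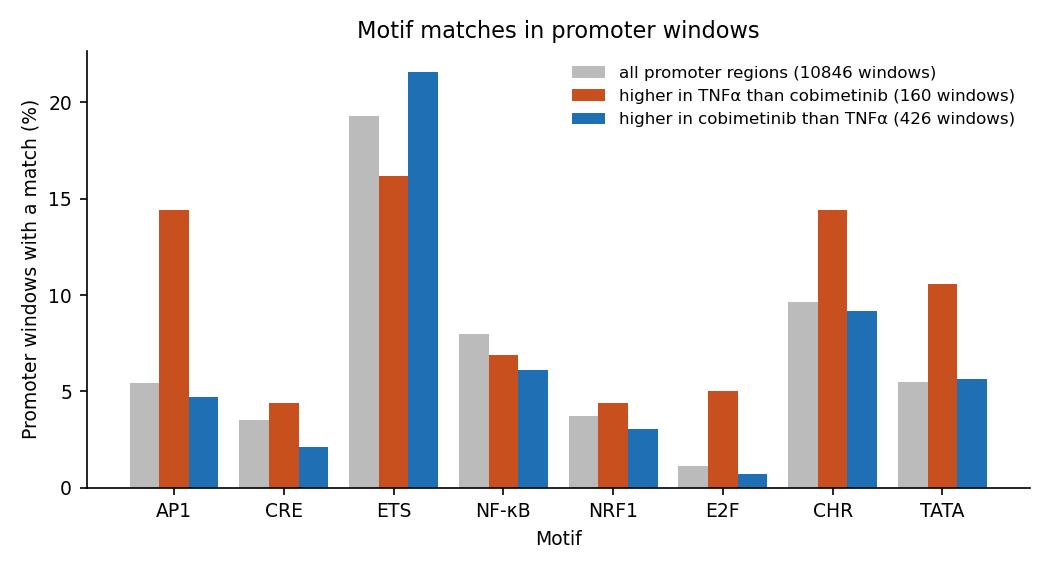
Share of promoter windows with at least 1 match (y axis, %) for 8 motifs (x axis), in all promoter regions (grey), regions higher with TNFα than cobimetinib (orange) and regions higher with cobimetinib than TNFα (blue). AP1 matches are in 14.4% of the orange set against 5.45% of all, and E2F matches in 5.0% against 1.12%.

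Canonical starts, the main start of each gene in the annotation, were counted near the called regions. A canonical start was within 1 kb of 87.2% of all promoter regions, but of 65.6% of those higher with TNFα than cobimetinib and 80.8% of those higher with cobimetinib. Against untreated cells the share was 87.4% of the 87 higher and 64.7% of the 17 lower with cobimetinib, and 44.4% of the 18 higher with TNFα. The regions of ABLIM1, FGD3, HDAC9, GNAS, TNIP1 and CLDN12 were all at such alternative starts. Named regions that overlapped no start included SAMD9 (905 bp from the nearest), FOSL1 (685 bp), IFNAR2 (564 bp) and the first TNIP1 region (551 bp). At the limits of the rule, the widest members were at ID2 (3960 bp), KDM6B (3909 bp) and CLDN6/HCFC1R1/THOC6/TNFRSF12A (3881 bp), and the narrowest regions left out were at BOLA1/H2AC20/H2AC21/H2BC21 (4015 bp), HNRNPL (4018 bp) and FLII/MIEF2 (4037 bp), each held by all 6 libraries. Single-library regions at BEND7, GAPDH and MAP2K5 lay 1000 bp from a start and were members, and those at ADNP (1001 bp), FAAH (1004 bp) and TOMM40L (1006 bp) were not.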

How the data were processed

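H3K27ac CUT&RUN libraries from HCT116 cells (2 each untreated, cobimetinib and TNFα) were compared, grouped by their labels. As deposited, each peak carries a whole-number score, at least 20. According to the methods of the study, the authors aligned trimmed reads to hg38 with BWA (0.7.15), called peaks per library with MACS2 (2.1.1) without IgG in paired-end and single-end mode, and merged both lists keeping the higher score. Scores rise with depth, which is unknown, so only ranks within a list were used, and several peaks of one promoter count once, by the best. IgG libraries were not used here.

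Starts came from GENCODE release 44. Log2 ranks, with a missing peak set to the list length plus 1, were fitted with limma (3.58.1, R 4.3.3; eBayes with trend) over all 38598 regions with Benjamini-Hochberg adjustment and a threshold of 0.05. Every adjusted p comes from these fits. Comparisons with untreated cells used all 6 libraries and TNFα against cobimetinib the 4 treated ones. The procedure was also run on simulated independent normal values with known shifts. These had no tied ranks, missing peaks or outlying library, so that run does not measure error rates in these data. Tables were handled with Python (3.11.15), numpy (2.4.6), pandas (2.3.3) and scipy (1.17.1).

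Members and gene lists were chosen with earlier results of these data known. Named regions are the 10 with the smallest mean rank, the 10 widest gaps in each presence set, the 5 smallest p in each limma direction, up to 4 called members of each list, and those at the limits of the rule. ORC1, PCNA, MCM3, MCM4, MCM6, TYMS, FOS, DUSP6, RELB, TNFAIP3 and PSMB5 fall outside this rule and were named after their values were seen. Some regions that the rule names are not reported here. Where a gene has several regions, lists use the best placed. Deviations of same-numbered replicates from their group means correlated at 0.155, 0.153 and 0.0863 over all regions and -0.0277, 0.089 and 0.039 over promoter regions; with 2 pairs a comparison and no shared batch in the labels, the numbers were not taken to pair samples and no replicate block was used. Alternatives covered the number of peaks, overlap, width and distance limits, centring, missing peaks, the libraries fitted and each library left out; robust eBayes, centring without untreated replicate 2, and list medians without it, were added after seeing the data.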

Additional observations from a re-analysis of the deposited data

How the results depend on the processing

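Presence counts are given in the order cobimetinib not untreated, untreated not cobimetinib, TNFα not untreated, untreated not TNFα, TNFα not cobimetinib and cobimetinib not TNFα. With absence defined outside the 40000 highest peaks they were 40, 13, 19, 10, 54 and 74. With 10000 peaks a library 1930 regions were held by all 6 and untreated not TNFα gave 213, and with 40000 peaks the values were 6134 held by all, 96 untreated not cobimetinib and 131 TNFα not untreated. When peaks had to cover 50% of the region, untreated not cobimetinib gave 51 and untreated not TNFα 49. Leaving out each library in turn gave 410 to 2814, 337 to 859, 265 to 2465, 264 to 927, 565 to 706 and 715 to 1029, since a single library then stands for a group.

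Calls by limma for cobimetinib against untreated, TNFα against untreated and TNFα against cobimetinib numbered 104, 21 and 586. With only regions that had a peak in every library they were 0 (829 at an unadjusted p under 0.05), 0 (341) and 290, and with ranks among merged regions 3, 5 and 0 (1209). The 4 libraries of the first comparison alone gave 57, all 6 libraries in the last gave 72, robust eBayes gave 324 in the last, and centred ranks without untreated replicate 2 gave 35 in the second. Leaving out each library gave 14 to 4174, 0 to 3356 (203 at an unadjusted p under 0.05 where there were 0) and 150 to 516, and the highest of the first 2 came without untreated replicate 1. With the replicate block, which rests only on shared numbers, the counts were 123, 24 and 708.

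Among 109 shifts of named regions the direction reversed in 1 of 654 alternatives, RBFOX1 with cobimetinib, -10.9 without untreated replicate 1 and 0.01 without replicate 2. This count does not measure stability, because most of these regions were chosen for wide gaps or small p. Where ranks do not overlap between groups, leaving out a library cannot reverse the direction. Ranks among merged regions ended 70 of the calls, and leaving out a library ended 124 of the tests made. The causes were not tested. Depth is unknown, so a peak below the lists' lowest score could not be told from none.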
